A study of Mus musculus with 2 samples.

Results

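Open CpG-poor promoters are start sites of genes that lie in accessible chromatin although their DNA holds few CpG dinucleotides. They were studied here in GMP, the granulocyte monocyte progenitors of mouse bone marrow, from which neutrophils and monocytes form. Members were regions whose summit lay within 1000 bp of a transcription start site (TSS), as annotated for protein-coding transcripts, with such TSSs of only 1 strand in that range. In addition, the 500 bp on either side of the nearest TSS had to have a CpG observed/expected ratio below 0.4. This ratio divides the number of CpG dinucleotides by the number that the frequencies of C and G alone would give. Of 75148 accessible regions in the list made from both samples, 2626 (3.49%) were members, and they belonged to 2169 genes. Another 1317 regions lay within 1000 bp of TSSs of both strands and were left out. Of the measured values, presence in that list and the position of the summit, taken from the row with the highest fold, entered the choice of members.

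The single group of the series was primary GMP from male C57BL/6J mice, adults of 5 to 6 weeks of age, with no treatment named in the labels. It was profiled by ATAC-seq, in which the Tn5 transposase cuts open DNA, with 50000 cells in each of 2 biological replicates. Both replicates carry the same donor label, so the spread between them may be technical in part. With 1 group of 2 samples no difference between conditions could be tested, and every comparison below describes regions or genes within these lists. The height of a region is given as the authors' fold enrichment. What this ratio was taken against is not stated in the labels or headers. The files hold no read counts, so depth is unknown, and absence from a list means only that the threshold was not passed.

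Most mammalian promoters lie in CpG islands, stretches of unmethylated DNA rich in CpG that are open in nearly all cell types and serve many housekeeping genes. CpG-poor promoters lack an island. They typically serve genes used in one tissue or cell type, such as granule proteins and surface receptors of leukocytes, and their opening usually goes with the binding of transcription factors of that lineage. In myeloid progenitors these factors include PU.1, the CEBP family and RUNX1.

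The DNA at or beside the summits of 8 members shows the kind of sequence involved. They are promoters of myeloid genes with the highest folds of their lists whose summit window, 50 bp to either side, held a PU.1, CEBP or RUNX motif. Coordinates are mm10, read 5' to 3' along the direction of transcription from RefSeq's GRCm38.p6 sequence, and each window was ended 10 bases past the TSS, which for Lyz2 is before its summit. Capitals mark matches, on either strand, to GAGGAAGT (PU.1), TTGCNNAA (CEBP) or TGTGGTT (RUNX), whose reverse complements begin ACTT, TTNN and AACC.
Elane (chr10:79886188-79886257, plus strand): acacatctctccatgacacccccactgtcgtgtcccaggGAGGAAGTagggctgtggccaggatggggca
Lyz2 (chr10:117282311-117282342, minus strand): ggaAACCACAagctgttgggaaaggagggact
Mmp8 (chr9:7558340-7558440, plus strand): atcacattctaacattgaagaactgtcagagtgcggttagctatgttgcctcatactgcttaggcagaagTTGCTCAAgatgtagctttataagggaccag
Ccr2 (chr9:124101867-124101960, plus strand): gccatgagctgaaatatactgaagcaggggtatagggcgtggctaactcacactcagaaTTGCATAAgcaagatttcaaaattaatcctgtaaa
Ly6c2 (chr15:75112054-75112154, minus strand): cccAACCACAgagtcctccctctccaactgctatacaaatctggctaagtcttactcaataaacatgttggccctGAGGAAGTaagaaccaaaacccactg
Cd300lf (chr11:115133982-115134046, minus strand): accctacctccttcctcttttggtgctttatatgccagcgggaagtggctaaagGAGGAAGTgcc
Il1r1 (chr1:40224927-40225027, plus strand): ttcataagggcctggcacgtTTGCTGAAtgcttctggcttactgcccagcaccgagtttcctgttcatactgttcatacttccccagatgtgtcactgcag
Was (chrX:8090488-8090548, minus strand): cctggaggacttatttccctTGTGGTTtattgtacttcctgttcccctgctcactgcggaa
PU.1 matches are seen in Elane, Ly6c2 and Cd300lf. CEBP matches are seen in Mmp8, Ccr2 and Il1r1, and RUNX matches in Lyz2, Ly6c2 and Was. Such a match is a description of the letters and not a measured binding site.

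Core promoters of 5 members held the letters TATAA at 20 to 40 bp before the TSS, the place of a TATA box, which binds the TATA-binding protein and sets where transcription starts. They run from 50 bases before to 10 bases after the TSS. Capitals mark TATAA and the single base of the TSS.
Mmp8 (chr9:7558406-7558466, plus strand): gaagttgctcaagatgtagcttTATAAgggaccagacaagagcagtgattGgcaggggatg
Ifitm6 (chr7:141016898-141016958, minus strand): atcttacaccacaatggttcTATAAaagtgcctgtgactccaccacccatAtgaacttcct
Serpinb1a (chr13:32851175-32851235, minus strand): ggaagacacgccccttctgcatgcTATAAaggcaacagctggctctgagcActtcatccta
Ccl12 (chr11:82101795-82101855, plus strand): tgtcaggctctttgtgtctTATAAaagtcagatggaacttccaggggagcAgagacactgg
Tph2 (chr10:115185012-115185072, minus strand): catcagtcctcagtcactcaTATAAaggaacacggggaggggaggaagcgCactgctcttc
TATAA started 25 to 31 bases before the TSS in the 7 named members that had it, and the median over all 80 members with it was 30 bases.

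Open CpG-poor promoters had a slightly lower median height than other open regions and were narrower than CpG-rich promoters. Their median fold enrichment was 7.58, with quartiles of 5.73 and 10.2 and a range of 1.68 to 26.2. The 2396 open promoters with a CpG ratio of 0.4 to 0.6 had a median fold of 8.82, the 9231 with a ratio of 0.6 or more (CpG-rich) 9.30, and the 59578 distal regions, over 1000 bp from every such TSS, 7.90. Median widths were 512.5 bp for members, 697 bp for intermediate promoters, 861 bp for CpG-rich promoters and 431 bp for distal regions. In width, members thus lay nearer to distal regions than to CpG-rich promoters.

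The DNA of members was poor in CpG without being poor in G and C. Their median CpG ratio was 0.248 and their median GC content 50.2%, against 0.789 and 62.0% at CpG-rich promoters. At 143 members (5.45%) the DNA around the summit itself reached a ratio of 0.4, and at 19 it reached 0.6. The 3 members just under the limit were Tnfsfm13, Zc3h7a and Lsmem1, with ratios of 0.3996, 0.3998 and 0.3998 and folds of 13.2, 3.04 and 9.45. The 3 open promoters just over it were Rbpjl, Gpatch2 and Rhoj, with ratios of 0.40005, 0.4002 and 0.4004 and folds of 9.05, 5.79 and 6.39. Folds on either side of the limit overlapped, and the limit cuts a continuous distribution.

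**Figure D1:**
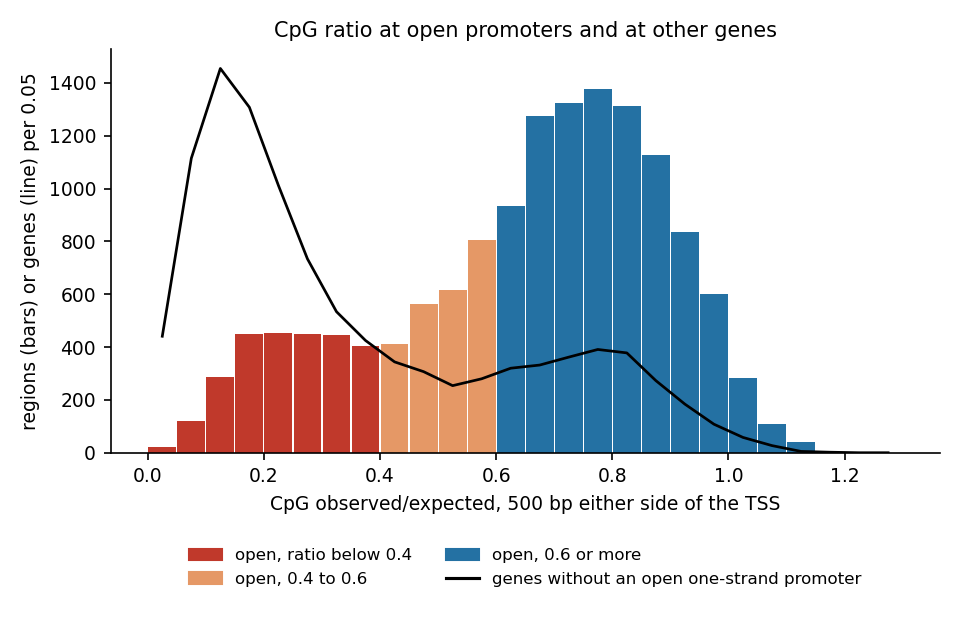
CpG observed/expected ratio in the 500 bp on either side of the TSS, on the x axis, for open promoter regions (bars) and, at their first listed TSS, for genes without an open promoter of 1 strand (line), in steps of 0.05. Bars are coloured for the 2626 members below 0.4, the 2396 intermediate promoters and the 9231 CpG-rich promoters. Genes without an open promoter are most frequent at low ratios, and open promoters at high ones.

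Few CpG-poor promoters were open. Of 12439 genes with at least 1 CpG-poor TSS, 2169 (17.4%) had an open CpG-poor promoter, while 70.3% of 11235 genes with a TSS of ratio 0.6 or more were open there. Among the 7686 genes whose every TSS was CpG-poor, 1292 (16.8%) had a member. Olfactory and vomeronasal receptors, the large gene families of smell, made up 1463 of the CpG-poor genes and only 29 of those with a member. Without them the share was 19.5% (2140 of 10976). In the list of each replicate alone, 15.8% of CpG-poor genes were open in replicate 1 and 13.6% in replicate 2.

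Not every member is the main promoter of its gene. Of the members, 1537 (58.5%) belonged to genes with CpG-poor TSSs only, and the other 1089 (41.5%) to genes that also have a TSS of higher ratio. Median folds were 8.05 and 7.04 in these 2 sets, and 72.3% and 68.0% of their members were in the lists of both replicates. For 1226 members the nearest TSS was the most upstream one of the gene, with a median fold of 8.24, and for 1400 it lay further downstream in the gene, with a median fold of 7.12. A single member was found at 1791 genes. The highest number was 5, at Adgrg1 (an adhesion receptor), Arap1 (a regulator of small GTPases) and Plec (plectin, a cytoskeletal linker).

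Most members were found again in each replicate. The lists of both replicates held 1852 members (70.5%), that of replicate 1 alone 365, that of replicate 2 alone 81 and neither list 328. Shares in both lists were higher at intermediate promoters (79.7%) and CpG-rich promoters (86.1%) and lower at distal regions (61.7%). Presence in both lists went with fold. With the members cut into 4 bands of equal size by fold, it was 37.4% in the lowest, 63.1% and 84.1% in the middle bands and 97.4% in the highest. In the same bands of fold the CpG-rich promoters had shares of 43.3%, 83.2%, 96.0% and 99.6%. Members were thus less often in both lists than CpG-rich promoters in every band, and they were also narrower in each band (367 bp against 463 bp in the lowest, 698 bp against 942 bp in the highest).

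Of the 328 members in neither replicate's list, 323 overlapped a region of a replicate's looser list, and 285 overlapped one in both. Their median fold was 4.98. The highest were Mypn (myopalladin of the sarcomere, fold 11.4), Tmod4 (a muscle tropomodulin, 9.10), Crispld1 (8.96), Plpp7 (8.09) and Rprd1b (8.09). They are set apart by having a high value in the joint list without a row in either single list.

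Among the 1852 members in both lists, replicate 1 had the higher fold at 1691 (91.3%). The median ratio of replicate 1 over replicate 2 was 1.18 (quartiles 1.08 and 1.32), and at CpG-rich promoters it was 1.14. The order of members was kept, with a Spearman correlation across members of 0.909, given as a description because the members share 2 libraries. Sequencing instruments are named in the labels for replicate 1 only, and their part in the difference was not tested.

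**Figure D2:**
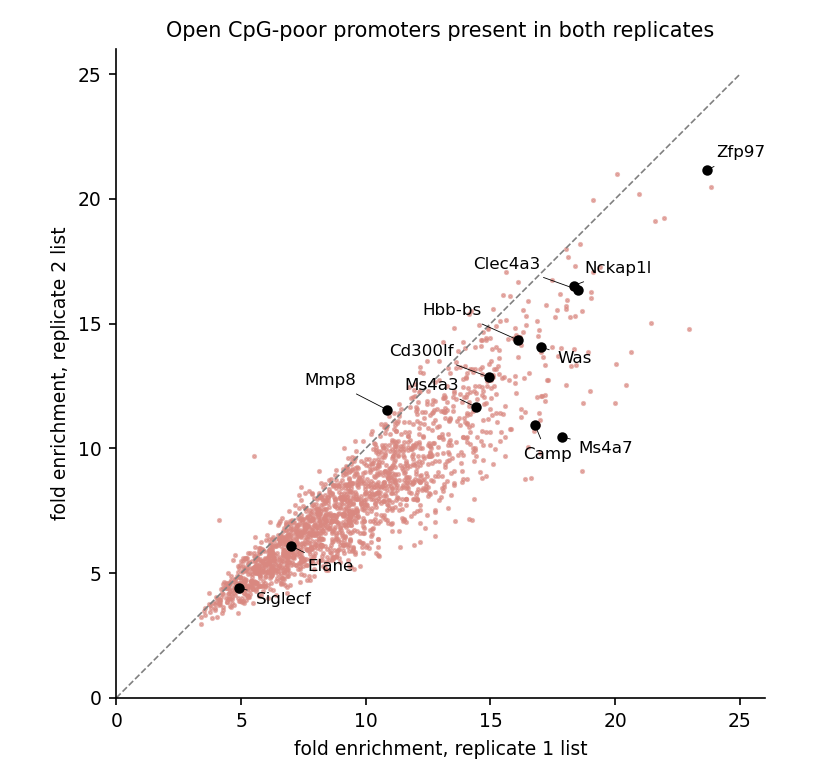
The authors' fold enrichment of the 1852 members found in both replicates, in the list of replicate 1 (x axis) and of replicate 2 (y axis), 1 point per member, with 12 named members in black and equality as a dashed line. Most points (1691) lie below the line, and Zfp97, Clec4a3 and Nckap1l are among the highest in both.

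Myeloid genes with CpG-poor promoters were open far more often than CpG-poor genes in general. Across 6 lists of granule proteins, neutrophil, monocyte and immune receptor genes, cytokine receptors and leukocyte signalling genes, 160 of 183 genes had a CpG-poor TSS (87.4%, against 56.9% of all 21853 genes). Of these 160, 128 (80%) had an open CpG-poor promoter, against 17.4% of all CpG-poor genes, and 106 had one in both replicates. The share was 71.9% in the list of replicate 1 and 71.3% in that of replicate 2. It was 36.25% when only the 50% of regions with the higher fold were kept, where the share over all CpG-poor genes was 8.89%. Taking the highest member of each gene, their median fold was 7.61, against 8.17 over all 2169 genes with a member. Over every member it was 6.87 for the 169 members of these genes, against 7.58 for all, so these genes were not higher in the median.

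Primary granule genes mostly encode proteins that promyelocytes, the next stage of neutrophil formation, pack into azurophil granules. Not every gene of the list is of this kind, Ms4a3 for one. Of 13 with a CpG-poor TSS 10 were open, 9 of them in both replicates, with a median fold of 6.12. Ms4a3, a membrane protein typical of the GMP stage, had the highest fold, 13.9 in the joint list, 14.4 in replicate 1 and 11.7 in replicate 2. Its summit lay 92 bp upstream of the TSS (chr19:11640652-11641207). Elane, neutrophil elastase, had 6.84 in the joint list, 7.002 in replicate 1 and 6.10 in replicate 2, at chr10:79886096-79886453, with its PU.1 match shown above near the summit. The other 3 named genes were Bpi (a bactericidal protein, 9.73), Lyz2 (lysozyme, 7.56) and Serpinb1a (an inhibitor of neutrophil proteases, 6.42). Ms4a3 stood above all 4 of them in both replicates. The 3 genes without a member were Cfd (complement factor D), Prtn3 (proteinase 3) and Igfbp4, of which Igfbp4 was open at a promoter of higher CpG ratio.

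Late neutrophil genes act after the GMP stage, in specific and gelatinase granules and on mature cells, and 18 of 28 were already open, 13 in both replicates. Camp, the cathelicidin of specific granules, had a fold of 14.01 in the joint list, 16.8 in replicate 1 and 10.9 in replicate 2. Mmp8, neutrophil collagenase, had 11.5 in the joint list, 10.9 in replicate 1 and 11.5 in replicate 2. These are opposite orders of the replicates, and Mmp8 is one of the members higher in replicate 2. Ifitm6 (an interferon-induced membrane protein, 13.1) and the calprotectin subunits S100a9 (11.2) and S100a8 (10.5) followed. Among the 10 without a member were BC100530 (a stefin), Cd177 (a neutrophil surface protein), Chil3 (a chitinase-like protein) and Fpr1 (a receptor for bacterial formyl peptides).

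Monocyte and macrophage genes were open at 22 of 25, 17 of them in both replicates, with a median fold of 8.69. The highest were the neighbouring C-type lectin receptors Clec4a3 and Clec4a1. Clec4a3 had a fold of 18.7 in the joint list, 18.5 in replicate 1 and 16.4 in replicate 2, at chr6:122952104-122952832. Clec4a1 had 16.7, 15.97 and 14.8 in the same order. Both lie above most members in each replicate. Cd300lf, an inhibitory receptor of myeloid cells, had 14.9, Siglech, a marker of plasmacytoid dendritic cells, 13.1 and Ly6c2, a marker of classical monocytes, 13.04. Cd209a (a lectin of dendritic cells), Ctss (cathepsin S) and Emb (embigin) had no member.

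Immune receptor genes, which let myeloid cells recognise microbes, antibodies and other cells, were open at 37 of 44, 29 in both replicates. Besides Cd300lf, the highest were Lilrb4a (an inhibitory immunoglobulin-like receptor, 14.6), Sirpb1c (a signal-regulatory protein, 14.6), Clec2d (a ligand of NK receptors, 14.1) and Tlr4 (the receptor for bacterial lipopolysaccharide, 12.02). Tlr4 was nearly equal in the replicates, with 12.1 in replicate 1 and 11.9 in replicate 2, and its summit lay 9 bp upstream of the TSS. The 7 genes without a member included Cd300lb, Fcgr4, Fcrla and Lilra6. Several of these lie in families of near-identical copies, and the labels and headers do not say how reads that fit several copies were treated.

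Cytokine and chemokine receptor genes were open at 13 of 20, 11 in both replicates. Il18rap, a subunit of the interleukin-18 receptor, had a fold of 13.4 in the joint list, 13.2 in replicate 1 and 11.6 in replicate 2. Il1r1 (the interleukin-1 receptor, 11.9), Csf2rb2 (a beta subunit of the mouse interleukin-3 receptor, 10.1), C3ar1 (the receptor for complement C3a, 9.65) and Ccr2 (which guides monocytes out of the marrow, 9.15) followed. Receptors more typical of mature or other cells were among the 7 without a member, such as C5ar1, Ccr3, Ccr7 and Cxcr1.

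Leukocyte signalling genes had the highest share, with 32 of 34 open and 30 open in both replicates. Nckap1l, which encodes the blood cell subunit of the WAVE actin regulator, had a fold of 18.6 in the joint list, 18.3 in replicate 1 and 16.5 in replicate 2. Was, the Wiskott-Aldrich syndrome actin regulator, had 17.1, 17.01 and 14.1 in the same order, with its summit on the TSS itself. Itgal (the alpha chain of the integrin LFA-1, 13.7), Lat2 (an adaptor of immune receptors, 12.1) and Arhgap15 (a GTPase activator for Rac, 11.0) came next. The remaining 2, Lcp1 (plastin) and Pik3cg (a lipid kinase), were open at a promoter of higher CpG ratio.

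**Figure D3:**
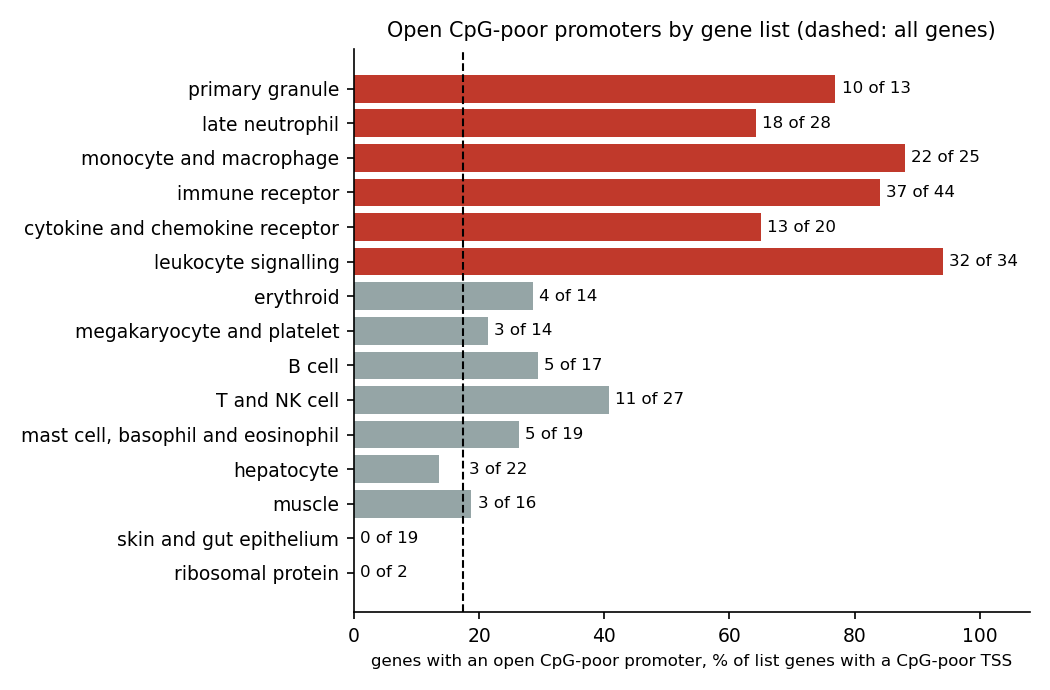
Share of genes with an open CpG-poor promoter (x axis, %) among the genes of each list with a CpG-poor TSS, with the counts beside the bars. Red bars are the 6 myeloid lists, grey bars other lineages and tissues, and the dashed line marks the 17.4% of all CpG-poor genes. The myeloid lists reach 64.3% to 94.1%, the others 0% to 40.7%.

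Lists of other blood lineages lay closer to the 17.4% of all CpG-poor genes, though above it, at 21.4% to 40.7%. All lists were chosen with earlier results of these data known, so this contrast gives no independent check of the cell label. Of 27 T and NK cell genes 11 were open (40.7%), each in both replicates. They were led by the NK receptors Klrd1 (fold 15.7) and Klrk1 (14.1), the co-receptor Cd28 (15.5), Cd3d of the T cell receptor complex (15.0) and Il7r (the interleukin-7 receptor, 13.9). The Cd3d summit lay 773 bp downstream of the TSS. Cd247, Cd3e, Cd3g and Cd4, which also define T cells, had no member.

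Of 17 B cell genes 5 were open (29.4%), all in both replicates, namely Cr2 (complement receptor, 19.5), Fcrl1 (12.2), Vpreb3 (8.44), Cd79b (7.31) and the adaptor Blnk (6.97). Blnk is also a gene of the leukocyte signalling list. Blk, Cd22 and Cd79a were among those without a member. Of 19 mast cell, basophil and eosinophil genes 5 were open (26.3%), all in both replicates. Among these 5, Il5ra and Siglecf are also genes of the myeloid lists. Prg3 of eosinophil granules (17.04) and the basophil protease Mcpt8 (12.2) stood above Hdc (histamine synthesis, 8.27), Il5ra (the interleukin-5 receptor, 6.196) and Siglecf (4.80), while Ccr3, Cma1, Cpa3 and Ear1 had no member.

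Of 14 erythroid genes 4 were open (28.6%), all in both replicates. Hbb-bs, the adult beta globin gene, had a fold of 16.9 in the joint list, 16.1 in replicate 1 and 14.3 in replicate 2. Its summit lay not at the TSS but 555 bp downstream, in an intron, and that of the sister gene Hbb-bt (11.1) lay 633 bp downstream. Gata1, the master regulator of red cell formation, had 9.99, and Ermap, a red cell surface protein, 9.79. Alas2, Car1, Epb42 and Epor had no member, and of these Epor was open at a promoter of higher ratio. Of 14 megakaryocyte genes 3 were open (21.4%), namely Plek (8.61, both replicates), Itga2b (4.55, replicate 1 only) and F2rl2 (4.86, neither replicate). Clec1b, Gp1ba, Gp5 and Gp6 had none. Red cell and platelet genes were thus open at a minority of their CpG-poor promoters. In such bulk samples a promoter open in few cells and one weakly open in many cannot be told apart.

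Genes of tissues outside the blood were near or below the share of all CpG-poor genes. Of 22 hepatocyte genes 3 were open (13.6%), with Apob (an apolipoprotein, fold 15.6) in both replicates, and the clotting factors F2 (7.55) in replicate 1 only and F9 (6.22) in replicate 2 only. Of 16 muscle genes 3 were open (18.75%), namely Ttn (titin, 11.99), Tnni2 (a troponin, 10.3) and Tnnt3 (another troponin, 7.66), the last in neither replicate. Apob, Ttn and Tnnt3 summits lay at 927 bp, -221 bp and -846 bp from the nearest TSS, negative values being upstream. None of 19 skin and gut epithelium genes was open in the joint list or in that of either replicate. Ahsg, Alb, Ambp and Apoa1 in liver, Acta1, Actn3, Ckm and Mb in muscle, and Defa24, Fabp1, Fabp2 and Flg in epithelium are examples of those without a member. Ribosomal protein genes showed the opposite build, since only 2 of 20 had a CpG-poor TSS, and both were open elsewhere at a richer one.

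Families of related genes showed which surface receptors were involved. Toll-like receptors, which sense microbial molecules, were open at 9 of 10 CpG-poor genes, 6 of them in both replicates, with Tlr11 (fold 12.1) and Tlr4 highest. Trem receptors were open at 5 of 6, led by Trem1 (11.01) and Trem2 (10.95), and Siglecs, receptors for sialic acid, at 6 of 8, led by Siglech and Siglecg (8.68). All 3 Sirp genes were open, Slam family genes at 6 of 9 (Slamf9, 11.8, and Slamf6, 10.3), Fc receptors at 8 of 15 (Fcgr1, 12.4, and Fcrl1) and Cd300 receptors at 6 of 12 (Cd300lf and Cd300lg, 12.8). All 7 families lay at or above 50%, over the 17.4% of all CpG-poor genes.

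Other families were open in part, at shares from 20% (Serpinb) to 50% (Ifit and Ifitm), against the 17.4% of all CpG-poor genes. Serpinb genes and solute carriers (23.5%) lay nearest to that share. C-type lectins were open at 14 of 29 (Clec4a3 and Clec4a4, 17.05), Trim genes, many of them antiviral, at 14 of 44 with a median fold of 12.1 (Trim30d, 19.8, and Trim5, 17.6), and interferon-induced Ifit and Ifitm genes at 6 of 12 (Ifitm6 and Ifit3b, 10.1). Interleukin receptors were open at 11 of 29, chemokine receptors at 8 of 22 (Cx3cr1, 12.1, and Cxcr3, 9.16), chemokine ligands at 9 of 30 (Ccl12, 11.6, and Ccl2, 11.2), Schlafen genes at 4 of 9 (Slfn3, 9.85, and Slfn8, 9.40) and Gbp genes at 4 of 9 (Gbp9, 10.5, and Gbp4, 9.37). Each of these families thus held genes with a member in the joint list and genes without one. Further families were S100a (5 of 12, with S100a9 and S100a8), Klr (8 of 25), Ms4a (5 of 19, with Ms4a7 at 15.6), Ly6 (4 of 15, Ly6c2 and Ly6g6e, 7.56), Serpinb (5 of 25, Serpinb8, 13.8, and Serpinb9, 13.5) and solute carriers (47 of 200, Slc39a14, 14.2, and Slc28a2, 13.01).

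Several families lay near or below the 17.4% of all CpG-poor genes, some of them used mostly outside the blood. Cytochrome P450 genes were open at 9 of 88, or 10.2% (Cyp2ab1, 18.5, and Cyp2j9, 12.8), and keratins at 3 of 40, or 7.5%. Serpina genes, at 4 of 24 or 16.7% (Serpina3f, 11.02, and Serpina3g, 7.03), lay close to the share of all CpG-poor genes. Olfactory receptors were open at 27 of 1131, of which Olfr1509 (16.1) and Olfr1510 (15.1) were highest, and vomeronasal receptors at 2 of 330. No defensin of 63, no claudin of 25 and no stefin A gene of 7 had a member in the joint list, though 1 stefin A gene had one in replicate 1. The paired immunoglobulin-like and Lilr receptors, open at 1 of 6 (16.7%), are a myeloid receptor family, and stefin A genes are expressed in neutrophils. Stefin A genes, these receptors and olfactory receptors include near-identical copies. Their counts are uncertain where reads that fit several copies were left out, which is not stated.

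The members with the highest folds were mostly not lineage genes. The top 10 were Gm5141 (26.2), Zfp97 (25.5), Zc4h2 (22.8), Car5b (22.7), Pcyt1b (22.6), Tph2 (22.4), 6720489N17Rik (21.5), Gm20594 (20.8), Tmsb15b2 (20.5) and Akap12 (20.5). Zfp97 and Zc4h2 encode zinc finger proteins, Car5b a mitochondrial carbonic anhydrase, Pcyt1b an enzyme of phosphatidylcholine synthesis and Tph2 the tryptophan hydroxylase of neurons. All 10 were in both replicates, between 19.1 and 23.8 in replicate 1 and between 14.8 and 21.2 in replicate 2. Of the 10, 4 lie on the X chromosome (Zc4h2, Car5b, Pcyt1b and Tmsb15b2), although it holds only 87 of the 2626 members. None of the 10 is a gene of the 15 lists.

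Summits of members were spread more widely around the TSS than those of other promoters. The median position was 31 bp upstream, against 18 bp at intermediate and 35 bp at CpG-rich promoters. The median distance in either direction was 150.5 bp, against 70 bp and 76 bp. Within 100 bp of the TSS lay 42.3% of member summits, against 58.7% and 57.7%, and beyond 500 bp lay 27.0%, against 15.7% and 14.0%. In the lists of replicate 1 and replicate 2 the members' median distances were 136.5 bp and 122 bp, against 73 bp and 72 bp at CpG-rich promoters. The wider spread was thus present in each replicate.

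**Figure D4:**
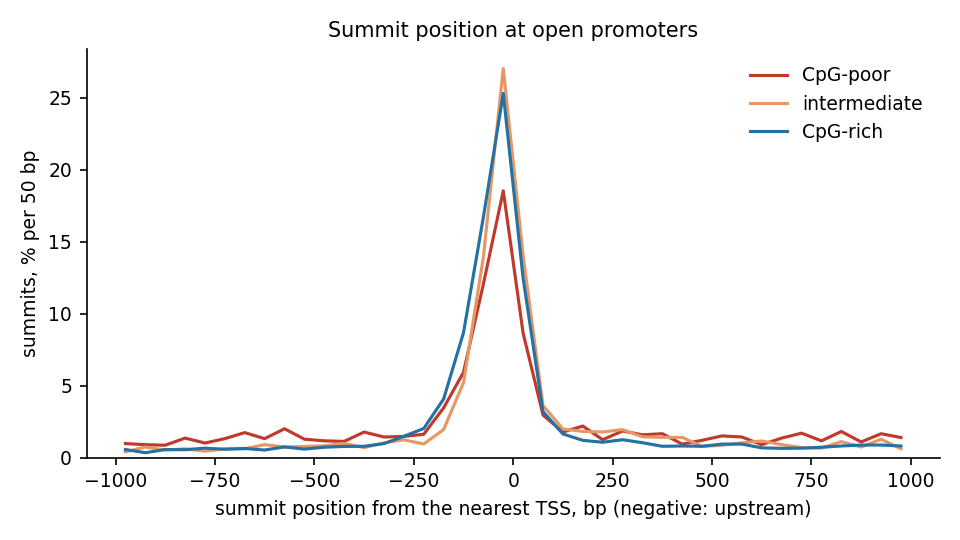
Position of the summit relative to the nearest TSS (x axis, bp, negative values upstream) as a percentage of summits per 50 bp, for CpG-poor members (red), intermediate (orange) and CpG-rich (blue) promoters. All 3 peak just upstream of the TSS, and the members have the lower peak and the higher shoulders, with 27.0% of summits beyond 500 bp.

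The annotation under the summit also differed. Introns of coding transcripts held 46.1% of member summits, against 26.1% at intermediate and 19.6% at CpG-rich promoters. DNA outside coding transcripts held 30.7%, against 38.9% and 52.7%, UTR exons 18.01%, against 29.8% and 24.3%, and coding exons 5.14%, against 5.13% and 3.38%. An internal TSS lies within a longer transcript, and the nearest TSS lay downstream of the gene's first for the 1400 members noted above.

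Summits of members carried the motifs of myeloid transcription factors at frequencies close to those of distal regions. Each of 17 consensus motifs was sought on both strands within 50 bp of the summits, and the share of summits with it was set against windows of the same size centred 500 bp to either side. GAGGAAGT, bound by PU.1, was found at 233 member summits (8.87%) against 0.704% of the flanking windows, which gave a log2 ratio of 3.65. Its SD over the 15 chromosomes with matches in both was 1.02, and the ratio was above 0 on all 15. At distal summits the share was 8.73% (log2 ratio 3.82 ± 0.24), at intermediate promoters 2.38% (1.66 ± 0.98) and at CpG-rich promoters 1.77% (1.81 ± 0.74). In PU.1 frequency, members thus stood with distal regions and not with the other promoters.

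CEBP and RUNX sequences were likewise more frequent at members than at CpG-rich promoters and close to distal regions. TTGCNNAA, bound by the CEBP factors, was found at 9.60% of member summits, with a log2 ratio of 1.38 ± 0.52 that was above 0 on all 20 chromosomes. Distal summits had 10.6% (1.39 ± 0.10), and CpG-rich summits 3.22% (-0.07 ± 0.38). TGTGGTT, bound by RUNX1, was found at 6.32% of member summits (1.52 ± 1.06), 7.26% of distal summits (1.502 ± 0.18) and 1.20% of CpG-rich summits (-0.50 ± 0.77). These SDs are the spread of single chromosomes, which hold few members each. At least 1 of the 3 motifs was present at 598 members (22.8%), so most members held none of these exact letters.

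Motifs of general promoter factors were found at a smaller share of members than of CpG-rich promoters. GGGCGGG, bound by KLF and SP factors, was found at 7.73% of member summits, against 24.7% at intermediate, 30.4% at CpG-rich and 2.76% at distal summits. Relative to flanks it was as enriched at members (log2 ratio 2.29 ± 0.93, above 0 on 17 of 17 chromosomes) as at CpG-rich promoters (2.19 ± 0.32). CCGGAAGT, the broad ETS consensus, was at 0.724% of member summits and 4.57% of CpG-rich ones. CCAAT, bound by NFY, was at 13.9% and 22.6%, GCATGCGC of NRF1 at 0.228% and 1.83%, and TGACGTCA of CRE factors at 0.685% and 2.05%. Relative to flanks TGACGTCA had a log2 ratio of 4.17 at members (18 summits, 2 flanking windows), above that of PU.1. At CpG-rich promoters its ratio was 4.47. The KLF/SP, ETS, NRF1 and CRE patterns themselves contain CpG, so the rule that chose the members bears on their counts. CCAAT does not contain it, nor do GAGGAAGT, TTGCNNAA and TGTGGTT, but base composition differs between the groups as given above.

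Other motifs varied more. TGANTCA (AP-1, 5.52%, log2 ratio 1.01 ± 0.86), GAAANNGAA (IRF, 4.72%, 0.71 ± 1.10) and GGGNNTTCC (NF-kB, 2.59%, 1.09 ± 0.95) had ratios above 0 on 16 of 19, 14 of 20 and 15 of 18 chromosomes. CAGNTG (E-box, 26.8%, 0.11 ± 0.27), CNGTTA (MYB, 9.94%, 0.15 ± 0.63) and TTCNNNGAA (STAT, 2.28%, -0.08 ± 1.22) were within 1 SD of their flanks. AGATAAG, bound by the GATA factors of red cells and megakaryocytes, was at 0.876% of member summits and 1.26% of their flanks. The CTCF motif was at 3.16% of member summits and 6.00% of distal ones, against 0.682% at CpG-rich summits. At members its log2 ratio was 6.38, above that of PU.1, but only 2 flanking windows held it, against 83 summits. AAGATGGC (YY1) was at 9 members. CAGNTG was at 24.8% of the flanks, so its ratio rests on a high background. The letters of some motifs can overlap, as those of PU.1 and ETS share GGAAGT.

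**Figure D5:**
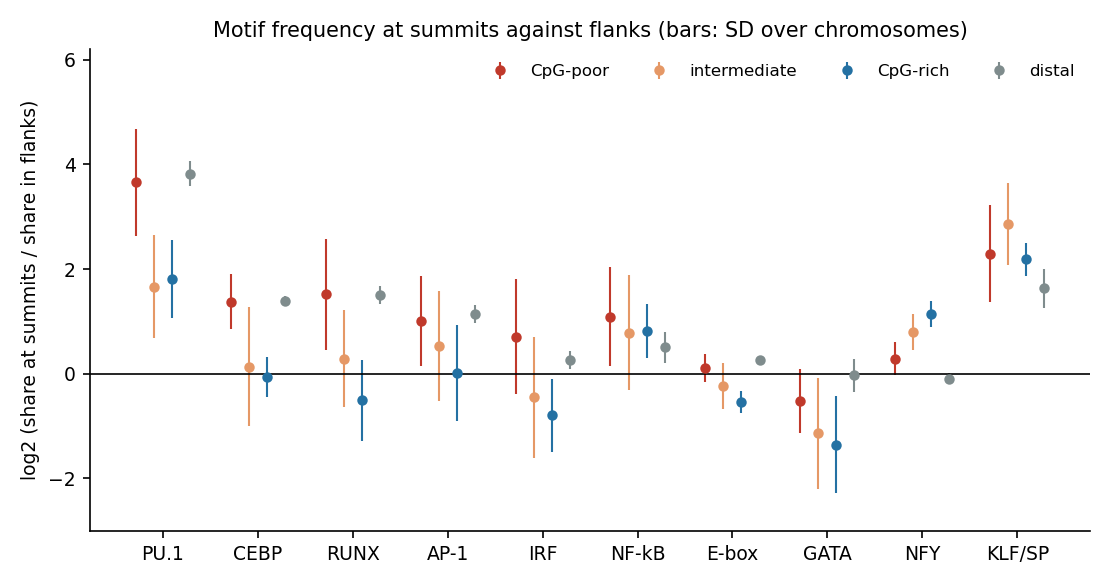
Log2 of the share of summits with a motif over the share of flanking windows (y axis), for members (CpG-poor), intermediate and CpG-rich promoters and distal regions. Points are ratios over all summits, and bars the SD over chromosomes with matches in both. For PU.1, CEBP and RUNX the members lie beside the distal regions and above the CpG-rich promoters, while NFY is highest at CpG-rich promoters. CTCF and CRE, whose ratios at members were above that of PU.1 with few matches in flanks, are not plotted.

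Within the members, PU.1 frequency was alike at all distances from the TSS. It was 9.09% within 100 bp of the TSS, 8.94% between 100 and 500 bp and 8.45% beyond 500 bp. Over the 4 bands of fold, from low to high, it was 8.68%, 11.1%, 8.23% and 7.46%, while NFY went with fold (9.74%, 13.1%, 13.6% and 19.3%). Members in both replicates had PU.1 at 9.61% and those in neither at 7.01%. The 169 members of genes in the myeloid lists had PU.1 at 14.8% (25 members), and the other 2457 at 8.47%, while CEBP (10.7% and 9.52%) and RUNX (6.51% and 6.31%) were alike in these sets. Counted by gene, leukocyte signalling genes held the most PU.1 matches, at 10 of 32 open genes, but these 32 genes had 54 members. Immune receptor genes had 8 of 37 (50 members) and cytokine and chemokine receptor genes 3 of 13 (14 members). Among the 6 myeloid lists the late neutrophil genes had the most CEBP matches for their number, at 5 of 18.

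Open and closed CpG-poor promoters were also compared by sequence alone, in the window from 300 bp before to 100 bp after the TSS. The closed set was the most upstream CpG-poor TSS of 7021 genes without any summit within 1000 bp of their TSSs. For 1400 members, in contrast, the nearest TSS lay downstream of the gene's first. The 2 sets thus also differ in the kind of TSS, and no split by this was made. GAGGAAGT was found at 9.63% of the 2431 TSSs of members, at 3.99% of closed ones, at 2.94% of CpG-rich open ones and at 3.48% of all 54329 coding TSSs. TGTGGTT was at 11.0% of member TSSs and 8.63% of closed ones (6.15% of all), and GGGCGGG at 14.7% and 5.87%. TTGCNNAA did not separate them, with 18.6% and 18.05% (12.9% of all), nor did AGATAAG, with 5.47% and 5.81%. CCGGAAGT was at 1.44% of member TSSs and 0.570% of closed ones, and the CTCF motif at 1.81% and 0.114% (44 and 8 TSSs). Closed TSSs had the higher share of CCAAT (39.98% of member TSSs and 48.1% of closed ones) and of TTCNNNGAA (11.0% and 15.8%). Motifs with and without CpG were thus found among those more frequent at member TSSs. Leaving out the smell receptors from the closed set gave 3.67% for PU.1 and 16.6% for CEBP.

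TATA boxes were more frequent at the closed TSSs than at those of members. The closed TSSs were the most upstream CpG-poor ones of their genes, and many member TSSs were not, so openness is not the only difference. TATAA at 20 to 40 bp before the TSS, on the sense strand, was found at 3.04% of member TSSs, at 9.002% of closed CpG-poor TSSs, at 1.297% of CpG-rich open TSSs and at 2.73% of all coding TSSs. The share was 2.97% at the 1111 member TSSs with a summit within 100 bp. The 80 members with TATAA (3.05%) had a median fold of 7.79 and the other 2546 one of 7.57, and 73.75% and 70.4% of them were in both replicates. In the myeloid lists 8 of 128 open genes had a TATAA, among them Ifitm6, Mmp8 and Serpinb1a shown above.

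CpG-poor promoters that were open lay in DNA with many other open regions. Within 50000 bp of the TSS, the median number of distal regions was 6 for member TSSs, 4 for intermediate and for CpG-rich open TSSs, and 1 for closed CpG-poor TSSs. The genes of the myeloid lists with a member had a median of 8. No distal region within that range was found for 5.35% of member TSSs, 6.49% of CpG-rich TSSs and 46.5% of closed CpG-poor TSSs (38.5% without the smell receptors).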

How the data were processed

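Accessible regions were analysed for 2 ATAC-seq replicates of mouse GMP, with coordinates in mm10 per the labels. The authors deposited region lists in which each row carries a fold enrichment, a ratio computed by the authors. Its denominator, the peak caller, the aligner and any shift of read ends are not stated in the labels or headers. The main list was the conservative one made from both replicates, thresholded by the irreproducible discovery rate (IDR). Rows sharing 1 bp or more were joined, keeping the summit and fold of the highest row. Per replicate, its own thresholded list was used, and a member counted as present where a region overlapped it by 1 bp. Depth is unknown, and the only interval computed was a Wilson interval for the share of members in both replicates. It served only as a limit for the alternative settings, and it treats members as independent although they share 2 libraries.

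TSSs were those of protein-coding transcripts in GENCODE vM21, and sequences came from RefSeq's GRCm38.p6, whose chromosome lengths are those of mm10. Steps used Python 3.11.15, numpy 2.4.6 and matplotlib 3.10.9 and were tested on simulated data. Of 365 list symbols, 361 were found. The members, the 15 gene lists, the families and the motifs were chosen with earlier results of these data known, so counts over them are descriptions, and the zinc finger and Nlrp1/Naip families were added after their values were seen. Named genes were the 5 highest by fold of each list, the 10 highest of all, the 5 highest in neither replicate, up to 4 list genes without a member in alphabetical order, the 2 highest of each family with at least 4 open genes, and the 3 promoters on each side of the CpG limit. Sequences were shown only where at most 30 bases of an annotated UTR fell in the window, which left 8 of 11. Alternatives were other lists, TSS sets, distances, CpG windows and motif windows.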

Additional observations from a re-analysis of the deposited data

How the results depend on the processing

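Across 10 results and 14 settings there were 112 alternative values. Of these, 51 moved by less than 1 SD between the replicates' own lists, and 61 moved further. The limit was 1.5 times for a count and the 95% Wilson interval for presence in both replicates. The summit position, the only result that could change direction, stayed upstream in every setting. The number of members rose to 4143 in the looser list of the authors and to 4039 with the TSSs of all transcripts of coding genes, and was 1160 among the 50% of regions with the higher fold. In the looser list the median fold was 5.73, the width 404 bp, the summit position -28 bp, the share of CpG-poor genes open 24.9%, PU.1 8.04%, CEBP 8.16%, TATAA 3.64%, the myeloid lists 91.25% and presence in both replicates 44.7%. Among those these were 10.6, 649 bp, -34 bp, 8.89%, 8.28%, 11.1%, 3.19%, 36.25% and 93.3%. With the TSSs of all transcripts, the width was 481 bp, the position -33 bp, the open share 19.01%, TATAA 2.40%, the myeloid share 78.1% and presence in both 67.6%. With basic transcripts, width was 531 bp, CEBP 9.33%, TATAA 3.49% and presence in both 72.5%. With summits within 500 bp, these were a width of 551 bp, a position of -32 bp, an open share of 14.2%, TATAA at 2.89%, a myeloid share of 78.1% and presence in both of 74.3%. With a CpG ratio below 0.3, width was 489 bp, the open share 14.1%, PU.1 10.6%, CEBP 11.0%, TATAA 3.43% and the myeloid share 77.7%. With a CpG window of 250 bp, PU.1 was 9.27% and CEBP 9.96%. With motif windows of 100 bp PU.1 was 11.8% and CEBP 15.2%, and with TATAA from 60 to 10 bp its share was 4.04%. The optimal list gave TATAA at 3.27%. Requiring at least 50% of a member to be covered gave presence in both of 68.0%. In the single lists of the replicates, members numbered 1991 to 2330, the median fold was 7.21 to 8.51, the width 479 bp to 501.5 bp, the position -31.5 bp to -31 bp, the open share 13.6% to 15.8%, PU.1 8.97% to 9.34%, CEBP 9.87% to 10.1%, TATAA 2.92% to 3.06% and the myeloid share 71.25% to 71.9%. Presence in both replicates has no value with 1 replicate left out. No paired analysis was possible because the series has only 1 group. The causes of these movements were not tested. Without read counts, what depth alone would hide among regions missing from a list cannot be given.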

Other observations

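A pair of gene groups stood out by height and were chosen after their values had been seen. Of 220 zinc finger genes with a CpG-poor TSS, 51 had an open CpG-poor promoter (23.2%, against 17.4% of all CpG-poor genes), 49 of them in both replicates, and their median fold, taking the highest member of each gene, was 14.1 against 8.17 over all genes with a member. Zfp97 had 25.5 in the joint list, 23.7 in replicate 1 and 21.2 in replicate 2, and Zfp991 had 20.1, 20.6 and 13.9. At their 56 members, CCAAT was found at 26.8% (15 members) and the ETS consensus at 5.36% (3 members), against 13.9% and 0.724% over all members, while a PU.1, CEBP or RUNX motif was at 8.93%, against 22.8%. Nlrp1 and Naip genes, which encode sensors of the inflammasome, were open at 8 of 9, with a median fold of 15.9 on the same footing. Nlrp1a had 19.3 in the joint list, 19.04 in replicate 1 and 16.3 in replicate 2, and Naip5 had 18.2, 18.04 and 15.6.

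Open CpG-poor promoters also lay side by side along the genome. There were 10 runs of at least 5 neighbouring genes that all had a member. The longest, of 6 genes each, were Tap2 to Btnl2 in the major histocompatibility complex on chromosome 17 (with H2-Ob, H2-Ab1, H2-Aa and H2-Eb1, genes of antigen presentation), Trem1 to Trem2 on chromosome 17, and Trim34a to Trim30c on chromosome 7. Of these antigen presentation genes H2-Ab1 (fold 8.04) was in both replicates, H2-Aa (6.75) in replicate 1 only and the highest H2-Eb1 region (11.4) in replicate 2 only. How many such runs other sets of genes would give was not tested.

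Repeat-masked bases filled more than 50% of the summit window at 2.40% of members, 1.21% of intermediate promoters, 0.802% of CpG-rich promoters and 4.84% of distal regions.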
